A study of Homo sapiens with 8 samples.

Results

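Histone chaperones are proteins that escort histones and place them on DNA, and 10 genes that encode them were followed here in A2780 cells under a PARP inhibitor, a CDK4/6 inhibitor or both. The genes were chosen by name: CHAF1A, CHAF1B, ASF1A, ASF1B, NASP, SUPT16H, SSRP1, HJURP, DAXX and HIRA, and all 10 were found among the 31721 Ensembl genes of the deposited table. Earlier results of these data were known when they were chosen. A2780 is an established human ovarian carcinoma line. RNA with a polyA tail was sequenced after 24 hours with olaparib plus palbociclib (the combination), palbociclib, olaparib or DMSO, the solvent control, with 2 libraries in each of the 4 groups; doses are not given in the sources used here. Olaparib blocks PARP1 and PARP2, enzymes of DNA break repair. Palbociclib blocks CDK4 and CDK6, the kinases with which cyclin D drives cells from G1 into S phase. The series' design text calls the libraries of a group biological repeats. Neither it nor the labels state separate cultures, so every p-value below reflects library-to-library spread that could be technical in part.

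New chromatin is assembled behind the replication fork by chromatin assembly factor 1 (CAF-1), which is brought to the fork by the sliding clamp PCNA and deposits histone H3 with H4 on new DNA. CHAF1A and CHAF1B encode its large and middle subunits. The ASF1 proteins hand H3 and H4 to CAF-1 during replication and to the HIRA complex outside it, and in human cells ASF1B is the paralog tied to proliferation while ASF1A is the preferred partner of HIRA. HIRA and DAXX place the replacement variant of H3 independently of replication, HIRA mainly in genes and DAXX, with ATRX, at telomeres and repeats. NASP guards the soluble pool of H3 and H4, and SUPT16H and SSRP1 form FACT, which opens and rebuilds nucleosomes ahead of and behind both polymerases. HJURP loads the centromeric H3 variant CENP-A, which in human cells happens after mitosis rather than in S phase. Accordingly CHAF1A, CHAF1B and ASF1B are called replication-coupled below and HIRA, DAXX and ASF1A replication-independent, while NASP, FACT and HJURP are given separately.

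The libraries held 20330206 to 34005420 reads, recovered from the FPKM values (fragments per kilobase of exon, scaled by library), and replicate libraries differed beyond what sampling of reads gives (chi-square per degree of freedom 2.29 to 3.78). Markers of epithelial cells, the morphology the labels give, were near 0: the 8 listed genes summed to 0.524 to 1.62 FPKM in a library, and CDH1, KRT19, PAX8 and MUC16 were at 0 in at least 1 library. That sum was 1.41 and 1.62 FPKM with the combination, 1.30 and 1.30 with palbociclib, 0.773 and 0.664 with olaparib and 0.597 and 0.524 in DMSO. The 5 fibroblast genes summed to 58.1 to 73.7 FPKM, led by LUM at 37.9 to 49.1, in every treatment. The 3 immune genes found of 5 listed summed to 0.138 to 0.302 FPKM and the 3 endothelial genes found of 4 to 0.0037 to 0.0169 FPKM.

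All 10 genes passed the filter for testing, a mean of at least 1 FPKM over the 8 libraries. In DMSO they ran from SUPT16H at 94.0 ± 1.22 FPKM (SD, n = 2, as for all levels here) through SSRP1 (73.5 ± 1.71), NASP (62.8 ± 1.66), ASF1B (49.8 ± 0.67), CHAF1A (44.0 ± 0.06), DAXX (41.8 ± 0.11), HJURP (18.1 ± 0.41), ASF1A (13.4 ± 0.90) and CHAF1B (12.3 ± 0.23) to HIRA at 2.69 ± 0.35 FPKM. No neighbours in that order overlapped between their DMSO libraries, although ASF1A and CHAF1B lay within little more than the SD of ASF1A. With the combination the order was different, and SSRP1, at 37.3 ± 0.01 FPKM, and NASP, at 38.0 ± 0.66, stood below ASF1B at 42.3 ± 0.66. CHAF1A, at 27.6 ± 0.15 FPKM, then stood below DAXX at 33.3 ± 0.36. HIRA was the lowest of the 10 in every library and rested on 176 to 411 reads, against 546 to 21656 for the other 9 genes, so its values were the least precise.

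**Figure D1:**
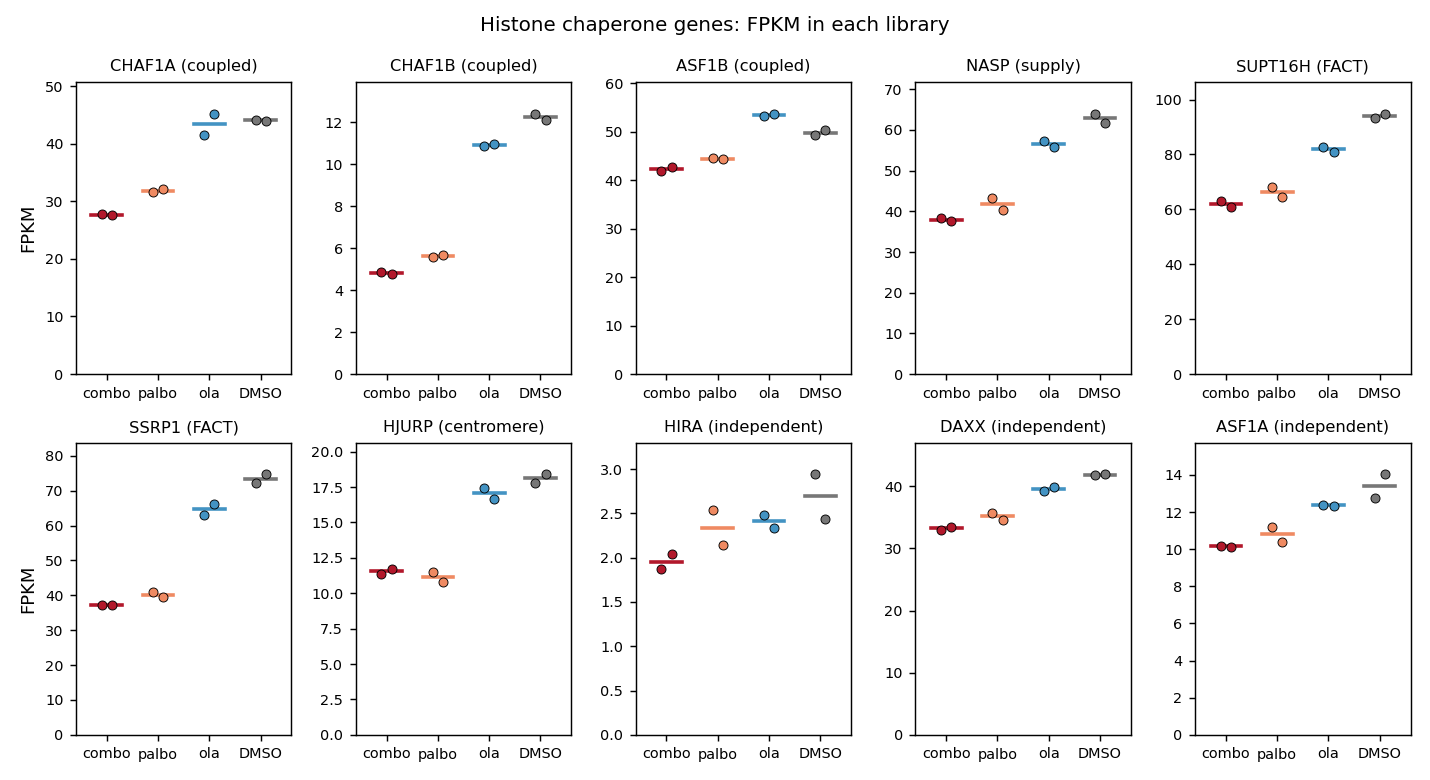
FPKM (vertical axis, from 0) of each histone chaperone gene in the combination, palbociclib (palbo), olaparib (ola) and DMSO libraries; points are the 2 libraries of a group and the bar their mean, with the role of the gene in parentheses. CHAF1B stands at 4.87 and 4.76 FPKM with the combination against 12.4 and 12.1 in DMSO, while the HIRA libraries of palbociclib and DMSO overlap.

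Palbociclib against DMSO compared libraries with and without the CDK4/6 inhibitor, in the absence of olaparib. Of the 10, 9 fell and 1, HIRA, did not pass the test (limma on log2(FPKM + 1), Benjamini-Hochberg adjusted p under 0.05 over all tested genes); of all 12443 tested genes, 31.4% were called lower, 18.7% higher and 50.1% in either direction. The median difference of the 10 genes was −0.48 in log2(FPKM + 1), against −0.05 over all tested genes. Among those called, mean FPKM fell by 54.1% for CHAF1B, the most, and fell by 10.7% for ASF1B, the least. In bulk RNA a smaller share of cells in S phase and less of a transcript per cell cannot be told apart. The 10 listed S phase genes all fell as well, to summed levels of 382.1 and 370.3 FPKM with palbociclib against 610.6 and 621.8 in DMSO, and the 10 G2/M genes to 345.3 and 327.0 against 607.4 and 635.5; their part in the result was not tested.

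Of the genes followed here, CHAF1B of CAF-1 had the steepest fall with palbociclib. CHAF1A fell less than SSRP1 (−0.85), HJURP (−0.65) and NASP (−0.58 in log2(FPKM + 1)). CHAF1B (chromosome 21, 36385378 to 36419015 on GRCh38) had 5.60 and 5.66 FPKM with palbociclib, against 12.4 and 12.1 FPKM in DMSO. The groups stood far apart, a difference of −1.0 ± 0.04 in log2(FPKM + 1) (SE; limma adjusted p = 2.5e-05), and 0.289% of the tested genes had a lower one. CHAF1A (chromosome 19, 4402662 to 4445018), the subunit that binds PCNA, had 31.6 and 32.1 FPKM with palbociclib, against 44.1 and 44.0 in DMSO. Here too the libraries did not overlap, with −0.45 ± 0.04 (limma adjusted p = 0.000252). The 95% interval was −1.09 to −0.91 for CHAF1B and −0.56 to −0.35 for CHAF1A. Within the complex, the FPKM ratio of CHAF1A to CHAF1B was 5.65 and 5.67 with palbociclib, against 3.55 and 3.63 in DMSO; the difference between the subunits was not tested.

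ASF1B (chromosome 19, 14119509 to 14136956), the third replication-coupled gene, had the smallest difference of those called. It had 44.5 and 44.4 FPKM with palbociclib, against 49.3 and 50.3 in DMSO, which is −0.16 ± 0.03 (limma adjusted p = 0.00512). The libraries did not overlap, but the call rested on the scaling: the difference was −0.06 with columns rescaled to a common total (TPM; adjusted p = 0.125), −0.01 after quantile normalisation (adjusted p = 0.885) and −0.10 by limma's voom on the recovered reads (adjusted p = 0.0733). Each of these alternatives ended the call.

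The supply and FACT genes all fell. NASP (chromosome 1, 45583846 to 45618904) had 43.2 and 40.3 FPKM with palbociclib, against 64.0 and 61.7 in DMSO (−0.58 ± 0.04, limma adjusted p = 9.55e-05). SSRP1 (chromosome 11, 57325985 to 57335877), the HMG-box subunit of FACT, had 41.0 and 39.4 FPKM with palbociclib, against 72.2 and 74.7 in DMSO. That was −0.85 ± 0.04 (limma adjusted p = 3.12e-05), the second largest fall of the 10. SUPT16H (chromosome 14, 21351472 to 21384266), the large subunit, had 68.2 and 64.5 FPKM with palbociclib, against 93.1 and 94.9 in DMSO, or −0.50 ± 0.04 (limma adjusted p = 0.000121), and −0.30 after quantile normalisation (adjusted p = 0.00148). The FPKM ratio of SUPT16H to SSRP1 was 1.66 and 1.64 with palbociclib, against 1.29 and 1.27 in DMSO. HJURP (chromosome 2, 233833416 to 233854566) had 11.5 and 10.8 FPKM with palbociclib, against 17.8 and 18.4 in DMSO, or −0.65 ± 0.05 (limma adjusted p = 7.84e-05).

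Of the replication-independent genes, ASF1A and DAXX fell and HIRA did not pass. ASF1A (chromosome 6, 118894220 to 118909167) had 11.2 and 10.4 FPKM with palbociclib, against 12.8 and 14.0 in DMSO (−0.29 ± 0.05, limma adjusted p = 0.00428). DAXX (chromosome 6, 33318558 to 33323016) had 35.7 and 34.6 FPKM with palbociclib, against 41.8 and 41.9 in DMSO (−0.24 ± 0.03, limma adjusted p = 0.000935). Its size rested on the scaling, at −0.15 in TPM and −0.11 after quantile normalisation, where it still passed (adjusted p = 0.00718 and 0.0257). HIRA (chromosome 22, 19330698 to 19447450) had 2.53 and 2.14 FPKM with palbociclib, against 2.94 and 2.44 in DMSO. Its libraries overlapped, and the difference of −0.14 ± 0.09 (limma adjusted p = 0.232) had a 95% interval of −0.36 to 0.07. That interval does not show that HIRA stayed level, and on the log2(FPKM + 1) scale a change of a gene this low is understated. With a pseudocount of 0.1 the difference was −0.19 (adjusted p = 0.234).

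The starts of the genes were searched for letters that cell-cycle factors are known to bind, in RefSeq's promoter windows on GRCh38.p14 (250 bases before to 50 after each start), which held 9 of the 10 genes; DAXX was not among them. The E2F letters TTTGGCGC, TTTGCCGC, TTTCGCGC or TTTCCCGC, on either strand, were in 1 of the 9 windows and in 3.31% of all 35116 windows. The letters of the cell-cycle homology region (CHR), TTTGAA or TTCGAA, were in 2 of the 9 and in 16.4% of all, and CCAAT was in 6 of the 9 and in 34.6% of all. The stretches below are shown since they set genes that fell with palbociclib beside HIRA, which did not pass; they run from 5′ to 3′ on the strand of the gene, and capitals mark every match in them.
CHAF1B: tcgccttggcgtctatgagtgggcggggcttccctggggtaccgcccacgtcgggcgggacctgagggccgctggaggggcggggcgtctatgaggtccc
CHAF1A: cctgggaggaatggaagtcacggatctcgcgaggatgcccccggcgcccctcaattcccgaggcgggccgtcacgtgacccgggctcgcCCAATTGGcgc
HJURP: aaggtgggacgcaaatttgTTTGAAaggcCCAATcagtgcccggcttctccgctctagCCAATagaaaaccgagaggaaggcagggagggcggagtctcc
ASF1B: ggaggccggctaTTTGAAggcggcgcgcgg
HIRA: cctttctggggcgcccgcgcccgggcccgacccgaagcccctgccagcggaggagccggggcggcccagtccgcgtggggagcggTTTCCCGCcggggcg
They lie at chr21:36385262-36385361 (plus strand), chr19:4402510-4402609 (plus), chr2:233854566-233854665 (minus), chr19:14136599-14136628 (minus) and chr22:19431764-19431863 (minus), in the order shown. Those of ASF1B and HIRA lie inside the gene spans given above, so their windows do not surround the outer ends of those spans. CHAF1B, the gene with the lowest difference, held none of these letters in its window, and in CHAF1A a pair of overlapping CCAAT matches on opposite strands forms the capitals. HJURP and ASF1B were the genes with a CHR match, and they differed in size of change with palbociclib. The single E2F match was in HIRA. These are matches of letters and say nothing of binding.

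**Figure D2:**
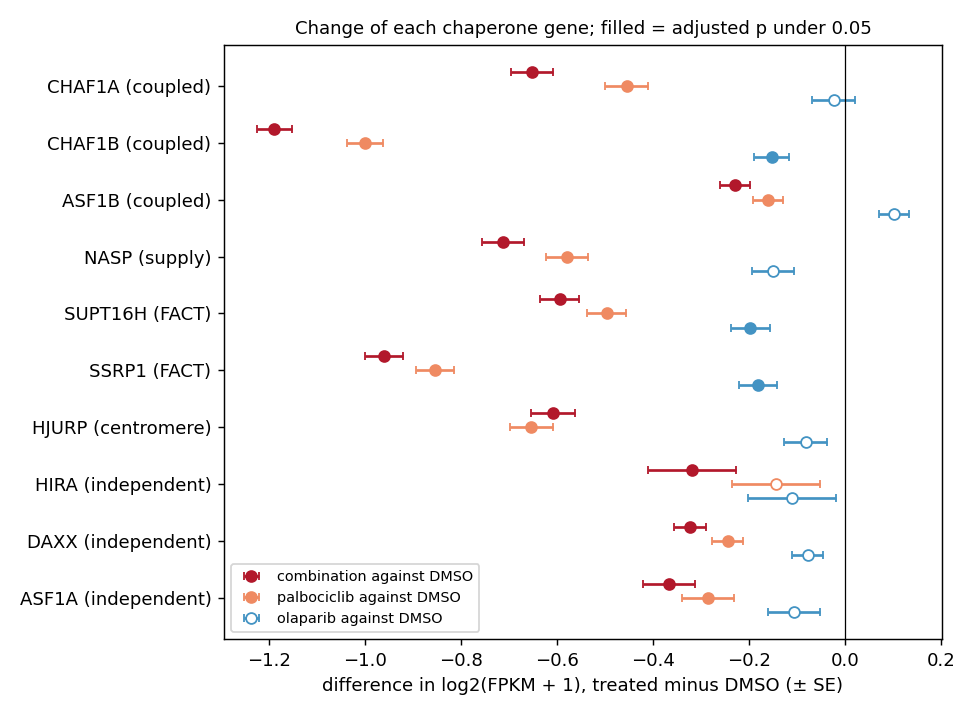
Difference in log2(FPKM + 1) between treated and DMSO libraries (horizontal axis) for each chaperone gene, with SE bars from limma; filled points passed an adjusted p of 0.05. CHAF1B and SSRP1 lie farthest to the left with the combination and palbociclib, and olaparib points lie between −0.20 and 0.10.

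The replication-coupled and replication-independent classes were set against each other within each library, as the mean log2(FPKM + 1) of CHAF1A, CHAF1B and ASF1B minus that of HIRA, DAXX and ASF1A. The gap was 0.91 and 0.88 with the combination, 0.88 and 0.99 with palbociclib, 1.29 and 1.35 with olaparib and 1.24 and 1.26 in DMSO. The libraries with palbociclib, alone or in the combination, therefore all lay below those without it. Relative to DMSO the gap differed by −0.35 with the combination, by −0.31 with palbociclib and by 0.07 with olaparib; these are descriptions with no test. They rested in part on how the classes were drawn: with NASP, SUPT16H and SSRP1 counted as replication-coupled the olaparib value turned to −0.0025, and with HJURP counted as replication-independent the palbociclib value was −0.21. The members of a class differed among themselves: with palbociclib the changes in mean FPKM were −10.7% for ASF1B, −19.3% for ASF1A, −16.0% for DAXX and −13.1% for HIRA. CHAF1A changed by −27.6% and CHAF1B by −54.1%. CHAF1B thus weighed most in the palbociclib gap, while ASF1B fell less in mean FPKM than ASF1A, DAXX and HIRA. With the combination mean FPKM changed by −15.0% for ASF1B, against −24.2% for ASF1A, −20.5% for DAXX and −27.4% for HIRA. CHAF1A changed there by −37.2% and CHAF1B by −60.7%. No gap without CHAF1B was computed, so the gaps with palbociclib and the combination are not shown to be a change shared by the class. The ASF1B to ASF1A ratio of FPKM was 4.10 and 4.24 with the combination, 3.97 and 4.26 with palbociclib, 4.31 and 4.35 with olaparib, and 3.86 and 3.58 in DMSO, so it was higher in each treated library than in either DMSO library.

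**Figure D3:**
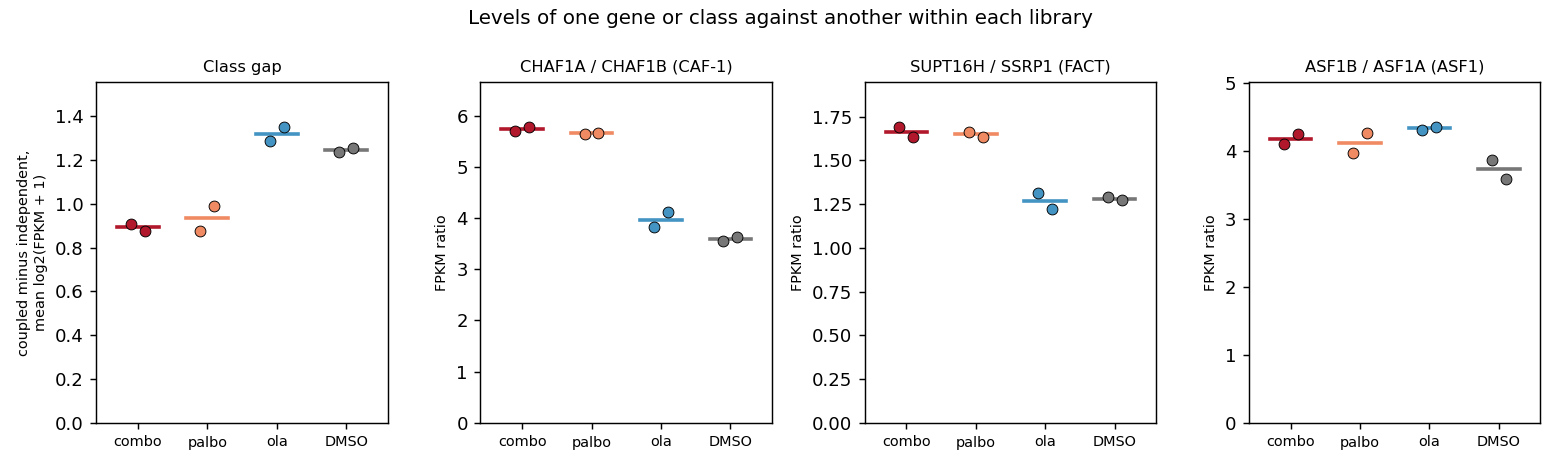
Within-library comparisons, each point 1 library and each bar the mean of a group: the class gap in mean log2(FPKM + 1), and FPKM ratios within CAF-1, FACT and the ASF1 pair (vertical axes from 0). The CAF-1 ratio is 5.65 to 5.78 in the 4 libraries with palbociclib and 3.55 to 4.11 in the 4 without it, and the FACT ratio 1.63 to 1.69 against 1.22 to 1.31.

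Olaparib against DMSO compared libraries with and without the PARP inhibitor, in the absence of palbociclib. It called 3 of the 10 lower, CHAF1B, SUPT16H and SSRP1, and 7 did not pass; of all tested genes 10.5% were called lower, 4.13% higher and 14.6% in either direction. CHAF1B had 10.9 and 10.99 FPKM with olaparib, against 12.4 and 12.1 in DMSO (−0.15 ± 0.04, limma adjusted p = 0.0381). SUPT16H had 82.7 and 81.0 FPKM with olaparib, against 93.1 and 94.9 in DMSO (−0.20 ± 0.04, limma adjusted p = 0.0255), and SSRP1 had 63.1 and 66.2 FPKM with olaparib, against 72.2 and 74.7 in DMSO (−0.18 ± 0.04, limma adjusted p = 0.0294). The libraries of these genes did not overlap, but 0 of the 10 genes passed in limma without either DMSO or either olaparib replicate, where 13 to 268 of all tested genes were then called. The scaling also ended all 3 calls: after quantile normalisation CHAF1B was at −0.10 (adjusted p = 0.140), SUPT16H at −0.10 (adjusted p = 0.175) and SSRP1 at −0.10 (adjusted p = 0.120), and in TPM the adjusted p values were 0.226, 0.121 and 0.103, in that order. With voom CHAF1B did not pass (−0.13, adjusted p = 0.0696), while SUPT16H and SSRP1 did. NASP had 57.2 and 55.8 FPKM with olaparib, against 64.0 and 61.7 in DMSO, and narrowly missed the threshold (−0.15 ± 0.04, limma adjusted p = 0.0609), while voom gave adjusted p = 0.0346. ASF1B was the gene of the 10 with a mean above DMSO, at 53.2 and 53.7 FPKM with olaparib against 49.3 and 50.3 in DMSO. Its difference of 0.10 ± 0.03 missed the threshold (limma adjusted p = 0.0723), and passed it as 0.16 after quantile normalisation (adjusted p = 0.0292), 0.17 in TPM (adjusted p = 0.026) and 0.14 by voom (adjusted p = 0.031). CHAF1A had 41.5 and 45.2 FPKM with olaparib, on both sides of its 44.1 and 44.0 FPKM in DMSO. The S phase genes summed to 584.0 and 593.2 FPKM with olaparib, against 610.6 and 621.8 in DMSO, with 5 of 10 lower, and the G2/M genes to 580.4 and 584.6 against 607.4 and 635.5, with 1 of 10 lower; their part was not tested. HJURP, DAXX, ASF1A and HIRA had differences of −0.11 to −0.08, which did not pass.

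The combination was compared with DMSO to see both drugs together. All 10 genes fell, with a median of −0.60 against −0.06 over all tested genes, and of all tested genes 35.3% were called lower, 21.5% higher and 56.8% in either direction. CHAF1B had 4.87 and 4.76 FPKM with the combination, against 12.4 and 12.1 in DMSO. Its mean fell by 60.7%, and the difference was −1.19 ± 0.04 in log2(FPKM + 1) (limma adjusted p = 1.31e-05). SSRP1 had 37.3 and 37.3 FPKM with the combination, against 72.2 and 74.7 in DMSO (−0.96 ± 0.04, limma adjusted p = 1.4e-05). These subunits of CAF-1 and FACT were again the most reduced. NASP had 38.4 and 37.5 FPKM with the combination, against 64.0 and 61.7 in DMSO (−0.71 ± 0.04, limma adjusted p = 2.71e-05). CHAF1A had 27.8 and 27.5 FPKM with the combination, against 44.1 and 44.0 in DMSO (−0.65 ± 0.04, limma adjusted p = 3.77e-05). The libraries of either gene were tightly grouped and far apart from DMSO. HJURP (−0.61 ± 0.05), SUPT16H (−0.59 ± 0.04), ASF1A (−0.37 ± 0.05), DAXX (−0.32 ± 0.03) and ASF1B (−0.23 ± 0.03) followed, with limma adjusted p values of 3.61e-05 to 0.00104. The S phase genes, all 10 lower, summed to 345.1 and 348.5 FPKM with the combination, against 610.6 and 621.8 in DMSO, and the G2/M genes, also all 10 lower, to 309.2 and 313.0 against 607.4 and 635.5; their part in the result was not tested. The ASF1B call was kept in TPM (−0.09, adjusted p = 0.0274) and lost after quantile normalisation (−0.02, adjusted p = 0.701). DAXX was at −0.19 in TPM (adjusted p = 0.00191) and −0.13 after quantile normalisation (adjusted p = 0.0104), and SUPT16H at −0.32 after quantile normalisation (adjusted p = 0.00075).

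HIRA passed the test with the combination, near the threshold. It had 1.87 and 2.04 FPKM with the combination, against 2.94 and 2.44 in DMSO, or −0.32 ± 0.09 (limma adjusted p = 0.0212), and the groups did not overlap. The call was lost without DMSO replicate 1 (−0.22, adjusted p = 0.129), without combination replicate 1 (−0.28, adjusted p = 0.0908), without a filter on low values (adjusted p = 0.0726) and in TPM (−0.28, adjusted p = 0.088). The combination was not shown to differ from palbociclib for HIRA (−0.17 ± 0.09, limma adjusted p = 0.391).

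Adding palbociclib to olaparib lowered most of the genes. The combination against olaparib called 9 of the 10 lower and left HIRA uncalled, where 27.4% of all tested genes were called lower, 17% higher and 44.4% in either direction. CHAF1B had 4.87 and 4.76 FPKM with the combination, against 10.9 and 10.99 with olaparib (−1.04 ± 0.04, limma adjusted p = 2.49e-05), and SSRP1 −0.78 ± 0.04 (limma adjusted p = 6.1e-05). ASF1B had 41.9 and 42.8 FPKM with the combination, against 53.2 and 53.7 with olaparib (−0.33 ± 0.03, limma adjusted p = 0.000326). HIRA had −0.21 ± 0.09 (limma adjusted p = 0.106). The comparisons with DMSO and with olaparib share the combination libraries, and those with DMSO share the DMSO libraries, so their values are not independent of each other.

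Adding olaparib to palbociclib gave no call among the 10 genes by limma, where 0.0241% of all tested genes were called, 0.0161% lower and 0.00804% higher. At an unadjusted p under 0.05 there were 6, a count with no share over all tested genes to set it against. Voom on the recovered reads called 1 of the 10, CHAF1A (adjusted p = 0.0493), where it called 251 of all tested genes. The difference was negative for 9 of the 10 genes, with a median of −0.10 against −0.02 over all tested genes. It was −0.20 ± 0.04 for CHAF1A, which had 27.8 and 27.5 FPKM with the combination against 31.6 and 32.1 with palbociclib (limma adjusted p = 0.146). For CHAF1B it was −0.19 ± 0.04, with 4.87 and 4.76 FPKM with the combination against 5.60 and 5.66 with palbociclib (limma adjusted p = 0.13). Neither gene's libraries overlapped, and HJURP, at 0.05 ± 0.05 (limma adjusted p = 0.666), was the gene with a positive value. The departure from additivity subtracts the olaparib difference without palbociclib from that in its presence, and it called 0 of the 10 genes by limma, with 0.00804% of all tested genes called. Voom called 0 as well. Again without a share over all tested genes to set it against, 2 genes had an unadjusted p under 0.05. These were ASF1B (−0.17 ± 0.04, limma adjusted p = 0.44) and CHAF1A (−0.17 ± 0.06, limma adjusted p = 0.452), both with a lower olaparib difference in the presence of palbociclib.

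Across the 8 libraries the genes followed each other closely, as a description over 4 groups that share their libraries and scaling. The median Pearson r of log2(FPKM + 1) between pairs was 0.951, the highest was 0.996, for CHAF1B with SSRP1, and all of the 9 lowest, from 0.614 to 0.807, involved HIRA. Among the tested protein-coding genes, the nearest to CHAF1B were EXO1, TUBB and PM20D2 (r = 0.999 each), and the nearest to NASP were EZH2, CHEK1 and ANP32E (r = 0.998). SSRP1 was nearest to ZWINT, PARP1 and SMC1A (r = 0.999 for the first 2), and CHAF1A to E2F1, HAUS8 and KHSRP (r = 0.994 to 0.998). For SUPT16H they were XRCC5, SRSF10 and SRSF2 (r = 0.999), and for DAXX TCOF1, SLBP and TFDP1 (r = 0.997 to 0.999). HJURP had SLC35E4, NDC80 and EPB41 (r = 0.997 to 0.998), and ASF1A had CRYZ, STRADB and CENPN (r = 0.991 to 0.994). ASF1B had C1QL1, SIPA1 and PTGFRN (r = 0.986 to 0.991). HIRA had no neighbour as close, with WDR89 at 0.978.

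Other histone chaperones, from lists named by role and chosen with earlier results of these data known, were set beside the 10 genes. Among other genes of replication-coupled assembly and histone supply, 7 of 10 tested fell with palbociclib and 3 did not pass (31.4% of all tested genes were called lower), with a median of −0.32. With the combination 9 fell and 1 rose (median −0.43, with 35.3% of all tested genes called lower and 21.5% higher). These counts rested on the scaling. With the combination 6 fell after quantile normalisation (median −0.24) and 7 in TPM and with voom, with 1 higher in each. With palbociclib 5 fell and 1 rose under each of the 3 scalings. Genes called higher made up 46.9%, 60.3% and 49.4% of all calls with the combination under quantile normalisation, TPM and voom, against 37.8% without rescaling. With palbociclib they made up 46.5%, 58.6% and 49.8%, against 37.3%. IPO4 was below the filter. MCM2, a helicase subunit that binds parental histones, had a mean of 55.5 FPKM with the combination against 93.7 in DMSO (−0.75 ± 0.04, limma adjusted p = 1.62e-05). CDAN1, whose product codanin holds ASF1 in the cytoplasm, was the gene that rose, at 7.92 FPKM with the combination against 6.39 in DMSO (0.27 ± 0.06, limma adjusted p = 0.00508). The partners of CENP-A loading and CENPA itself all fell with the combination, 4 of 4 (median −0.43), from CENPA (−0.95 ± 0.06) to OIP5 (−0.27 ± 0.08); OIP5 did not pass in TPM (−0.17, adjusted p = 0.138) or with voom (−0.22, adjusted p = 0.121). The H2A-H2B and linker chaperones fell in 11 of 11 with either palbociclib (median −0.58) or the combination (median −0.67), from ANP32E (−0.92 ± 0.06), which removes H2A.Z, to NAP1L1 (−0.09 ± 0.03, limma adjusted p = 0.0474). After quantile normalisation 8 were lower with palbociclib, and 9 were lower and 1 higher with the combination; in TPM and with voom 9 were lower with palbociclib and 10 with the combination. NPM3 (−0.12, adjusted p = 0.0716) and VPS72 (−0.02, adjusted p = 0.769) lost their palbociclib calls after quantile normalisation. NAP1L1 turned to 0.05 there with palbociclib (adjusted p = 0.349), and with the combination to 0.12 (adjusted p = 0.036), and to 0.05 in TPM (adjusted p = 0.311).

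The list of other replication-independent chaperones held ATRX, the partner of DAXX, the HIRA complex genes CABIN1, UBN1 and UBN2, and SUPT6H, a chaperone of transcription elongation. Of these 5 genes, 3 rose with the combination, 1 fell and 1 did not pass, with a median of 0.19 (21.5% of all tested genes were called higher and 35.3% lower), and with palbociclib 2 rose, 1 fell and 2 did not pass (median 0.12; 18.7% of all tested genes were called higher and 31.4% lower). CABIN1, a subunit of the HIRA complex, had a mean of 31.5 FPKM with the combination and 28.6 FPKM with palbociclib against 23.4 in DMSO. Its differences were 0.41 ± 0.04 with the combination (limma adjusted p = 0.000169) and 0.28 ± 0.04 with palbociclib (limma adjusted p = 0.0014), and they were larger under each other scaling. UBN1, another subunit of that complex, fell by 0.31 ± 0.04 with the combination (limma adjusted p = 0.000345), and this held under each scaling. ATRX rose by 0.30 ± 0.05 with the combination (limma adjusted p = 0.00235) and by 0.25 ± 0.05 with palbociclib (limma adjusted p = 0.00708). Both ATRX calls held under each scaling. The count of higher genes with the combination was 3 after quantile normalisation and 4 in TPM and with voom. With palbociclib it was 3, 4 and 4, in that order. Among all genes called under these scalings, 46.9%, 60.3% and 49.4% were higher with the combination, against 37.8% without rescaling. With palbociclib these shares were 46.5%, 58.6% and 49.8%, against 37.3%. SUPT6H was called higher with the combination under each of these scalings, at 0.23, 0.16 and 0.10 (limma adjusted p = 0.0012, 0.00621 and 0.0348). UBN2 lost its combination call after quantile normalisation (0.15, limma adjusted p = 0.0526).

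Of 4 variant histone genes, 2 fell with either treatment, H2AFZ and H2AFV, which encode forms of H2A.Z, where 35.3% of all tested genes were called lower with the combination and 31.4% with palbociclib. The other 2, H3F3A and H3F3B, encode the replacement H3 that HIRA and DAXX deposit; they are named after their values were seen. H3F3A had means of 89.2 FPKM with the combination and 90.9 with palbociclib, against 88.2 in DMSO, and H3F3B had 148.8 and 150.1 FPKM, against 155.2 in DMSO. Neither passed (limma adjusted p = 0.203 to 0.723), although quantile normalisation called both higher and TPM and voom called H3F3A higher.

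**Figure D4:**
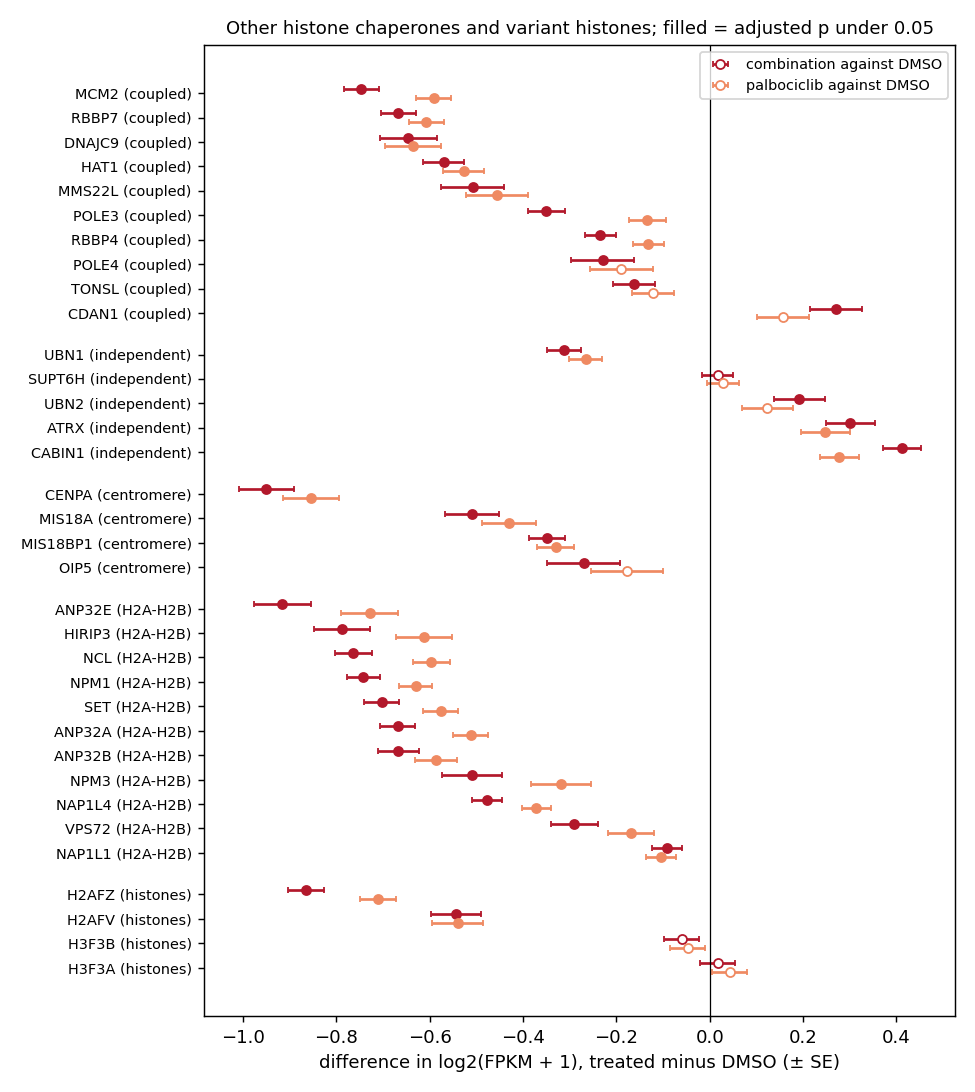
Difference in log2(FPKM + 1) (horizontal axis, SE bars from limma) of other histone chaperones and variant histone genes, combination and palbociclib against DMSO, grouped by role; filled points passed an adjusted p of 0.05. Most points lie left of 0, CABIN1 is the farthest to the right at 0.41 with the combination, and H3F3A and H3F3B lie near 0.

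The share of higher genes among all calls depended on the scaling, and counts of lower genes are to be read with it. It was 37.8% for the combination, 37.3% for palbociclib and 28.2% for olaparib, each against DMSO. In TPM it was 60.3%, 58.6% and 68.8%, after quantile normalisation 46.9%, 46.5% and 60.2%, and with voom 49.4%, 49.8% and 48.1%, in the same order. For the combination against olaparib it was 38.2%, and 56.2%, 48.1% and 48.7% under these scalings. Under all of them CHAF1A, CHAF1B, NASP, SUPT16H, SSRP1, HJURP, DAXX and ASF1A passed as lower with the combination and with palbociclib against DMSO.

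Overlap in the annotation can limit which genes are told from their neighbours. The sources used here do not state whether strand was used in counting. In GENCODE 29, the spans of 9 of the 10 genes overlap another annotated gene, SUPT16H being the exception. Among these overlaps are MCM9 with ASF1A, MORC3 with CHAF1B, UBXN6 with CHAF1A, AL662820.1 with DAXX, and C22orf39 and MRPL40 with HIRA. Whether the exons of such pairs overlap was not examined, and reads in any shared exon could not be assigned to either gene. SUPT16H and HIRA also have annotated pseudogenes of their own name.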

How the data were processed

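RNA from 8 libraries was used, 2 for each of 4 groups taken from the treatment label. The FPKM values the authors deposited give 1 column per library; per the submitters' processing notes, tools were HTSeq 0.6.0, STAR 2.5.1b and CASAVA 1.8, and builds hg38 and GRCh38, with no role stated. Symbols, positions and exon lengths came from GENCODE 29, which held 30945 of the 31721 identifiers. With those lengths 28632 genes (90.3%) gave whole reads in every library within 0.01 reads; for 3072 others, DAXX among them, a length giving whole reads was searched for.

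The 12443 genes averaging at least 1 FPKM entered a limma fit (limma 3.58.1, R 4.3.3) of log2(FPKM + 1) over all 8 libraries together, with a mean-variance trend; prior degrees of freedom were 3.01, residual ones 4. Fold changes on this scale are understated for low genes. With 2 libraries a side the smallest exact permutation p is 0.333, so none was run. The fit was tested on simulated data. Alternatives were another pseudocount, no filter, quantile normalisation, TPM, no trend, a replicate block, only the groups compared, voom on recovered reads, and each library left out. The genes, classes and lists were chosen with earlier results of these data known. All 10 genes are named, and of the wider lists the highest and lowest with the combination. Further genes of those lists, SUPT6H, UBN2, ATRX, NPM3 and VPS72, are given with values after these were seen.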

Additional observations from a re-analysis of the deposited data

How the results depend on the processing

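The counts of lower genes were 9 or 10 with the combination, 8 or 9 with palbociclib and 9 for the combination against olaparib under every alternative run. With olaparib the count of genes called, 3, all lower, became 0 without a filter and 1 lower without a trend and with only the groups compared in the fit; after quantile normalisation and in TPM it was 1, ASF1B called higher, with 0 lower, and with voom 3 lower and 1 higher; leaving out 1 library gave 0 to 3, and the cause was not tested. The calls over all tested genes with olaparib were 1821, and 13 to 1956 with 1 library left out, 601 without a filter, 1000 after quantile normalisation, 1010 in TPM and 2931 with voom. For the combination against palbociclib voom called 1 of the 10 genes, and over all genes 251 against 3. The replicate block called 10, 9 and 4 genes with the combination, palbociclib and olaparib, and 7235, 6394 and 2112 over all tested genes. With olaparib, 1224 of all tested genes were called without a trend and 1241 with only the groups compared. With every library kept, the alternatives called 6699 to 7584 with the combination, 5418 to 6908 with palbociclib and 4251 to 6041 for the combination against olaparib. Replicate deviations of different groups correlated at −0.05 to 0.03, so the numbers gave no sign of pairing.

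The class gap differed from DMSO by −0.35 with the combination, and by −0.39 with NASP, SUPT16H and SSRP1 counted as replication-coupled, −0.29 with HJURP counted as replication-independent and −0.27 after quantile normalisation. With palbociclib the −0.31 became −0.21 with HJURP and −0.25 after quantile normalisation. With olaparib the 0.07 became −0.0025 with NASP, SUPT16H and SSRP1. Leaving out 1 library gave −0.37 to −0.34, −0.37 to −0.26 and 0.04 to 0.10 for the combination, palbociclib and olaparib.

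Among the 10 genes, the differences whose sign turned had not passed. CHAF1A with olaparib was 0.036 after quantile normalisation, 0.039 in TPM, 0.011 with voom and −0.085 to 0.038 with 1 library left out. The departure from additivity turned for ASF1A (−0.0020 after quantile normalisation, −0.0018 in TPM, and −0.040 to 0.088 with 1 library left out) and NASP (−0.014, −0.0095, and −0.031 to 0.066). With 1 library left out it ran from −0.020 to 0.020 for DAXX and from −0.16 to 0.033 for HIRA. TPM moved the median of all tested genes by 0.13 with the combination, so changes smaller than that are read against it. Depth limits HIRA most, at 176 to 411 reads.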
